A study of Mus musculus with 12 samples.

Results

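The interleukin-6 and interleukin-10 cytokine system was followed through 10 genes of 41388 in the deposited tables. They were taken by symbol from the mouse Ensembl gene IDs, and all 10 were found. The cytokine genes were Il6, Osm, Lif, Clcf1 and Il10, the receptor chain genes were Il6ra, Il6st, Il10ra and Il10rb, and Stat3 encodes the transcription factor that these receptors share. The rule that picks them uses names and no measured value, but the members were chosen with earlier results of these data known.

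Interleukin-6, oncostatin M, leukaemia inhibitory factor and cardiotrophin-like cytokine factor form a family whose receptors all contain gp130, the product of Il6st. Interleukin-6 first binds its own receptor chain, the product of Il6ra, and the complex then recruits gp130. Interleukin-10 binds the chains made from Il10ra and Il10rb. Each of these receptors works through JAK kinases that phosphorylate STAT3. In macrophages interleukin-6 is an early product of Toll-like receptor signalling, while interleukin-10 restrains the production of inflammatory cytokines.

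The cells were mouse peritoneal macrophages elicited with thioglycolate, an irritant broth, and harvested 4 days after the injection. They were cultured overnight and then exposed for 8 h to 250 uM of the saturated fatty acid palmitate with 100 ng/ml of the bacterial endotoxin LPS, or to vehicle (BSA-PBS). Both genotypes carry LysM-Cre, a recombinase driven by the lysozyme M promoter of myeloid cells. The knockout genotype is labelled LysM-PPARg and PPARg KO, a deletion of the nuclear receptor PPARγ in LysM-expressing cells, and the controls are labelled LysM-Cre and Cre (WT). The groups were labelled knockout with palmitate plus LPS (pl-ppar), control with palmitate plus LPS (pl-cre), labelled knockout with vehicle (bp-ppar) and control with vehicle (bp-cre), with 3 libraries each, and the pl groups are called stimulated. The labels do not say whether libraries came from separate mice, nor the age or strain, so p-values measure only the spread between libraries. Bulk RNA cannot tell apart fewer cells of a type and less RNA per cell.

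The libraries held 17960457 to 22696385 counts. Levels of 7 macrophage markers, among them Adgre1, Csf1r and Lyz2, were summed as CPM (counts relative to the library total after TMM scaling, which sets the libraries on a common scale). The sums were 6065 to 6304 CPM in pl-ppar, 5126 to 5712 in pl-cre, 6526 to 8273 in bp-ppar and 5855 to 6618 in bp-cre. At an edgeR adjusted p under 0.05, 3 of the 7 were higher and 1 lower between stimulated genotypes (10% and 6.10% of all genes). Under vehicle 0 were higher and 1 lower (2.11% and 1.69%). Pparg itself, the gene that the label names, was not lower: it stood at 99.4 ± 10.6 CPM in bp-ppar and 61.6 ± 0.687 CPM in bp-cre (SD, n = 3 each), a log2 difference of 0.69 ± 0.11 (SE; edgeR adjusted p = 0.00124). After stimulation Pparg was low in both genotypes, at 4.45 ± 0.765 CPM in pl-ppar and 3.55 ± 0.647 CPM in pl-cre. The log2 difference there was 0.33 ± 0.16 (edgeR adjusted p = 0.177). Counts per gene include exons outside a deleted part, so they do not test the deletion, and each direction between genotypes rests on the label. The library bp-ppar replicate 1 stood apart from replicates 2 and 3 of its group, with a mean chi-square per gene of 42.9 and 49.0, against 2.47 to 12.9 for the other pairs of replicates. Where leaving it out changed a member's call or moved a value of a member by over 1.5 times, both values are given, except for Il10rb under vehicle, which was 0.00 in either case.

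Among the 5 members with a RefSeq promoter in the table used (GRCm38.p6, 250 bases before to 50 after the start), those of Il6, Lif and Il6ra are shown because their transcripts moved most with treatment. Capitals mark matches on either strand to 7 motifs: NF-kB (GGGA, any base, TTTCC), AP-1 (TGANTCA), CRE (TGACGTCA), C/EBP (TTGCNCAA), STAT (TTCNNNGAA), ISRE (GAAA, any 2 bases, GAAA) and PPRE (2 copies of AGGTCA with any 1 base between).
Il6, chr5:30012864-30013163, plus strand: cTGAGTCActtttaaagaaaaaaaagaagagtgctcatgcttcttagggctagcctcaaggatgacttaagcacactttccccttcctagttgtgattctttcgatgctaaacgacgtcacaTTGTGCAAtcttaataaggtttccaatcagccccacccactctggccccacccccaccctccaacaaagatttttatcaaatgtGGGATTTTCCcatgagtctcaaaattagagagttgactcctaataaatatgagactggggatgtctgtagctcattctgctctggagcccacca
Lif, chr11:4257318-4257617, plus strand: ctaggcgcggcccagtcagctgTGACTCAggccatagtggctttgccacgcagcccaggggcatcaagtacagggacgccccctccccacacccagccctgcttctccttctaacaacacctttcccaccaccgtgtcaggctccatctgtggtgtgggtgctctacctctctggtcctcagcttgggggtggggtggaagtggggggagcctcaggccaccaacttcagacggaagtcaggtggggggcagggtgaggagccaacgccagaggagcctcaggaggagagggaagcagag
Il6ra, chr3:89913147-89913446, minus strand: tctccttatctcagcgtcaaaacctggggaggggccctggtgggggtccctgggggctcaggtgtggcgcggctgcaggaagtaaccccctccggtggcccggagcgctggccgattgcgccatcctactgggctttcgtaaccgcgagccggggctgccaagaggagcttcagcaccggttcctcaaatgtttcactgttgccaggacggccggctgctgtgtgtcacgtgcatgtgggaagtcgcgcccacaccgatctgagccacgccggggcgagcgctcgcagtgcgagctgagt

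The Il6 window held an NF-kB match that starts at -44 from the RefSeq start, a C/EBP match at -128 and an AP-1 match at -249, and these do not overlap. The Lif window held an AP-1 match at -228. The windows of Il6ra, Il6st and Stat3 held no match to the 7 motifs. Of 32851 windows of the same length, 0.411% held the NF-kB letters, 2.94% the C/EBP letters and 7.81% the AP-1 letters. The shares were 1.79% for CRE, 8.30% for STAT, 3.44% for ISRE and 0.0396% for PPRE. RefSeq starts need not equal the gene starts in the deposited tables. Such matches describe sequence and say nothing of binding.

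Per kilobase of exon, the order of the genes changed with treatment. In the deposited RPKM (CPM divided by exon length), Il6 was the most abundant member after palmitate plus LPS, at 611 ± 34.5 in pl-ppar and 596 ± 13.4 in pl-cre, while it stood at 1.73 ± 0.365 in bp-ppar and 1.52 ± 0.376 in bp-cre (SD, n = 3 each). Il10rb led under vehicle, with 68.7 ± 4.15 RPKM in bp-ppar and 70.8 ± 0.740 in bp-cre, and came next after stimulation with 57.3 ± 2.35 in pl-ppar and 58.4 ± 0.858 in pl-cre. Il10ra and then Stat3 came next under vehicle, followed by Il6ra, Il6st, Osm and Il6. After stimulation Il6ra, at 0.628 ± 0.0899 RPKM in pl-ppar and 0.326 ± 0.0338 in pl-cre, ranked below Il6st at 1.86 ± 0.0862 in pl-ppar and 1.46 ± 0.215 in pl-cre. Lif and Il10 stayed below 0.5 RPKM in each library. Osm (17.6 ± 1.98 RPKM in pl-ppar, 19.4 ± 0.917 in pl-cre) and Il10ra (16.5 ± 2.27 in pl-ppar, 14.6 ± 0.903 in pl-cre) lay within 2 SD of each other in pl-ppar, as did Il6ra and Il6st under vehicle in bp-ppar. Stat3 stood above Osm in pl-ppar at 20.1 ± 0.805 RPKM, within 2 SD of it, and below Osm in pl-cre at 15.2 ± 1.17 RPKM, next to Il10ra.

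**Figure D1:**
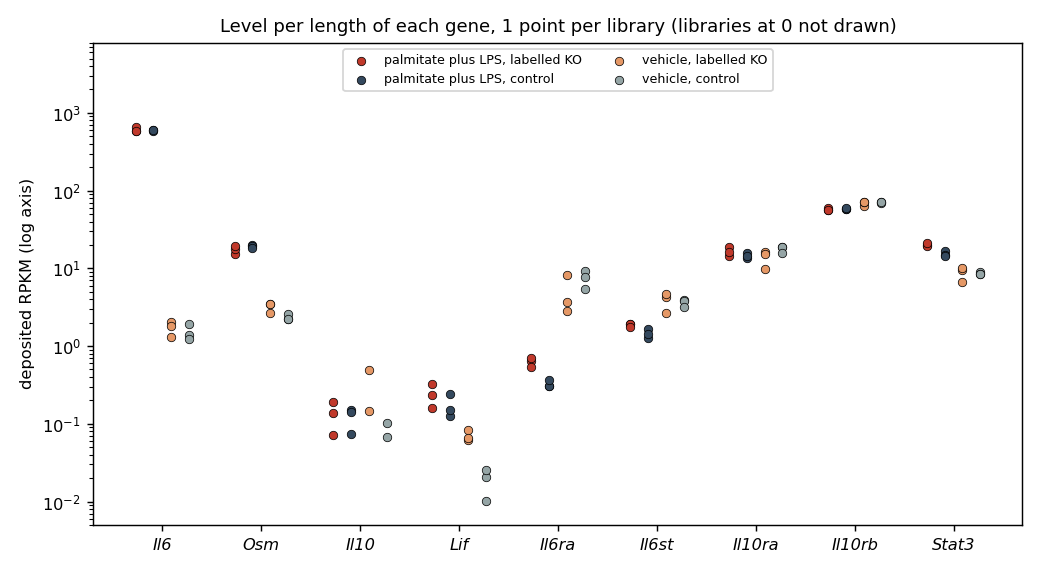
Deposited RPKM of 9 genes on a log axis, 1 point per library, with the 4 groups as colours from left to right; libraries at 0 are not drawn and Clcf1, at 0 in each library, is left out. Il6 averages 611 RPKM in pl-ppar and 596 in pl-cre, against 1.73 in bp-ppar and 1.52 in bp-cre, while Il6ra runs the other way.

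Of the 10 members, 8 passed the filter on low counts (Il10 and Clcf1 did not), and a gene is said to be called, to rise or to fall at an edgeR adjusted p under 0.05. With treatment, 5 rose (Il6, Osm, Lif, Il10ra, Stat3) and 2 fell (Il6ra, Il6st) in the labelled knockouts, where 69.4% of 12914 genes were called, 33.7% higher and 35.6% lower. In the controls 4 rose (Il6, Osm, Lif, Stat3) and 2 fell (Il6ra, Il6st), where 66.7% of genes were called, 32.0% higher and 34.7% lower. The stimulated and vehicle libraries did not overlap for 8 of 8 members in the labelled knockouts (70.4% of all genes) and 6 of 8 in the controls (74.8%). The median log2 response of the 8 was 1.11 in the labelled knockouts and 0.60 in the controls, against -0.06 and -0.05 over all genes tested. Lif, 1 of the 8, passed the filter only through its stimulated libraries. Its part in these treatment counts and medians is therefore no support for a rise.

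Between genotypes after stimulation 2 of 8 were higher (Stat3 and Il6st) and 0 lower, where 16.1% of genes were called, 10% higher and 6.10% lower. Under vehicle 1 of 8 was higher (Osm), where 3.80% were called, 2.11% higher and 1.69% lower. Between responses 1 of 8 was called lower (Osm), where 8.05% were called, 4.70% higher and 3.35% lower. The genotypes did not overlap for 4 of 8 members after stimulation (42.2% of all genes) and 3 of 8 under vehicle (19.8%). The median log2 difference of the 8 was 0.35 after stimulation and 0.09 under vehicle, against -0.01 and 0.01 over all genes tested. Taken in either direction together, the calls between genotypes lie within 1 gene of what the background share gives among 8. These counts are therefore no result about the group as a whole. The calls were set beside 18 other settings of the fit, each with 1 change (another scaling, no filter, DESeq2, the compared groups alone, a replicate block, or 1 of the 12 libraries left out), or 17 for the difference between responses.

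**Figure D2:**
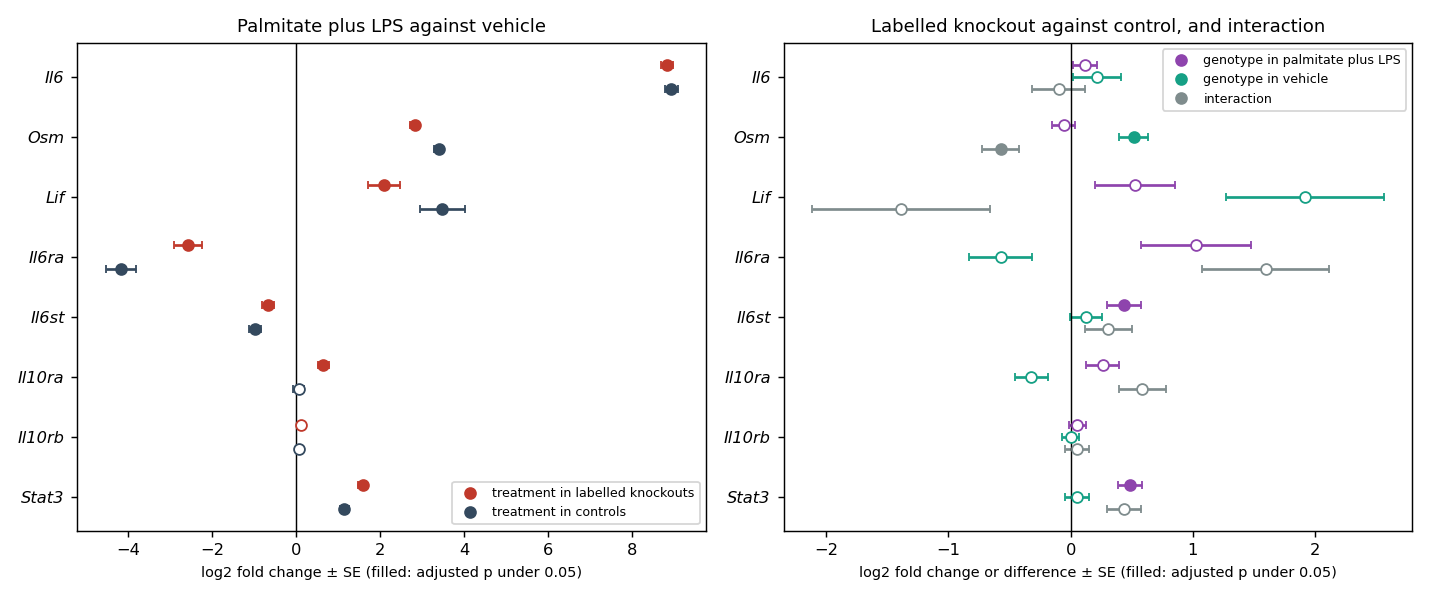
Log2 fold changes ± SE of the 8 tested members; the left panel shows palmitate plus LPS over vehicle in each genotype, the right panel labelled knockout over control in each treatment and the difference between responses, with filled points for adjusted p under 0.05 (edgeR). On the left all but Il10rb (either genotype) and Il10ra (controls) are filled, and on the right Osm under vehicle and between responses, and Il6st and Stat3 after stimulation. Lif passed the filter only through the stimulated libraries, so its filled points on the left are no support for a rise.

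Il6 (ENSMUSG00000025746, GRCm38 chromosome 5, 30013161 to 30019968, plus strand) rose with palmitate plus LPS, 455-fold in the labelled knockouts and 488-fold in the controls, and was not called between genotypes. Its TMM-normalised level was 757, 818 and 739 CPM in pl-ppar and 699, 708 and 727 CPM in pl-cre. The vehicle libraries had 2.15, 1.75 and 1.24 CPM in bp-ppar and 1.79, 1.30 and 1.21 CPM in bp-cre, from 24 to 48 counts each. Each stimulated library thus stood far above each vehicle library, and the stimulated genotypes did not overlap, with 739 to 818 CPM in pl-ppar and 699 to 727 CPM in pl-cre. The log2 response was 8.83 ± 0.15 in the labelled knockouts (SE; edgeR adjusted p = 9.18e-17) and 8.93 ± 0.15 in the controls (adjusted p = 9.35e-17). The difference between genotypes was 0.12 ± 0.10 after stimulation (edgeR adjusted p = 0.457) and 0.22 ± 0.20 under vehicle (adjusted p = 0.602). The responses differed by -0.10 ± 0.22 (adjusted p = 0.8). Without bp-ppar replicate 1 the vehicle difference was 0.043 (edgeR adjusted p = 0.968) and that between responses 0.072 (adjusted p = 0.873). By Pearson correlation of log2 CPM over the 12 libraries, the genes most like Il6 among 7411 compared were Trim12a, Trim30c and Mitd1, with r of 0.999 each. These 12 libraries fall into a stimulated and a vehicle cluster, so r mainly records that separation.

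Osm (ENSMUSG00000058755, chromosome 11, 4236420 to 4241026, plus strand) encodes oncostatin M and also rose with treatment, and its vehicle level was higher in the labelled knockouts. It stood at 41.6, 47.2 and 50.7 CPM in pl-ppar and 49.0, 49.8 and 46.3 CPM in pl-cre. Under vehicle it stood at 5.87, 7.01 and 6.84 CPM in bp-ppar and 4.26, 5.01 and 4.55 CPM in bp-cre. The genotypes overlapped after stimulation and did not overlap under vehicle. The vehicle difference was 0.52 ± 0.12 (edgeR adjusted p = 0.0202), and the stimulated one was -0.06 ± 0.09 (adjusted p = 0.727). The response was 2.82 ± 0.11 in the labelled knockouts and 3.39 ± 0.11 in the controls, a difference between responses of -0.57 ± 0.15 (adjusted p = 0.0322). The vehicle call was lost in 5 of 18 other settings: without bp-cre replicate 1 (0.46, edgeR adjusted p = 0.128), without bp-cre replicate 3 (0.51, adjusted p = 0.0742), without bp-ppar replicate 2 (0.47, adjusted p = 0.0784), with the vehicle groups alone (0.51, adjusted p = 0.145) and with total-count scaling (0.47, adjusted p = 0.0774). The call on the responses was lost in 10 of 17 settings, with values from -0.65 to -0.50 and adjusted p up to 0.104. The summed level of markers of neutrophils, which also express Osm, was higher in the labelled knockouts in either treatment. Under vehicle the sum over 7 genes was 111 to 114 CPM in bp-ppar and 77.1 to 80.6 CPM in bp-cre. Of 4 tested, 2 were higher (2.11% of all genes), and Ly6g was at 0 in both of these groups, S100a9 in bp-ppar and Retnlg in bp-cre. After stimulation, where Osm was not called between genotypes, the sum was 143 to 173 CPM in pl-ppar and 106 to 115 CPM in pl-cre. Of 4 tested, 2 were higher and 1 lower (10% and 6.10% of all genes). There S100a9 and Ly6g were at 0 in both groups and Retnlg in pl-ppar. The sums thus come from the other genes of the list and need not stand for neutrophils. The part of neutrophils in the vehicle Osm difference was not tested.

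Lif (ENSMUSG00000034394, chromosome 11, 4257557 to 4272514, plus strand) encodes leukaemia inhibitory factor and lies 16530 bases from Osm. Its counts were low throughout, with 28, 22 and 15 in pl-ppar and 11, 22 and 14 in pl-cre. Under vehicle there were 5, 8 and 6 counts in bp-ppar and 1, 2 and 2 in bp-cre. The stimulated genotypes overlapped and the vehicle genotypes did not. It passed the filter on low counts only through the stimulated libraries, so its treatment values are given with no test. The log2 response was 2.09 ± 0.39 in the labelled knockouts and 3.48 ± 0.53 in the controls. The vehicle difference of 1.92 ± 0.65 did not pass the threshold of 0.05 (edgeR adjusted p = 0.133), nor did the stimulated one of 0.53 ± 0.33 (adjusted p = 0.292) or the difference between responses of -1.39 ± 0.73 (adjusted p = 0.232). Stromal and mesothelial markers, from cells that can also make this cytokine, summed to 348, 199 and 245 CPM over 11 genes in pl-ppar and to 167, 144 and 145 CPM in pl-cre. Under vehicle the sums were 151 to 195 CPM in bp-ppar and 117 to 137 CPM in bp-cre, where Thy1 was at 0. Of 10 tested markers, 6 were higher after stimulation (10% of all genes) and 0 under vehicle (2.11%). Their part in the Lif values was not tested.

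Il10 and Clcf1 had too few counts for the test across genes. Il10 (ENSMUSG00000016529, chromosome 1, 131019845 to 131024974, plus strand) had 5, 2 and 4 counts in pl-ppar and 4, 2 and 4 in pl-cre. Under vehicle it had 12, 0 and 4 counts in bp-ppar and 3, 2 and 0 in bp-cre. The groups overlapped in either treatment, and 8 h of palmitate plus LPS left the gene near its floor while Il6 reached 12864 to 15085 counts. The ratio of Il10 CPM from summed counts and totals, labelled knockout over control, was 1.08 after stimulation (exact 95% counting interval 0.418 to 2.85) and 3.29 under vehicle (interval 1.15 to 11.5). Without bp-ppar replicate 1, the library that stood apart, the vehicle ratio was 1.18 (interval 0.234 to 5.48). Such intervals cover counting error only. When genes with low counts were kept, edgeR did not call Il10 in any of the 5 comparisons (adjusted p from 0.288 to 0.998). Clcf1 (ENSMUSG00000040663, chromosome 19, 4214238 to 4223490, plus strand), the gene of cardiotrophin-like cytokine factor, had 0 counts in each of the 12 libraries. A count of 0 allows up to 3 counts per library, or 0.132 to 0.167 CPM by library total.

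The Il10 to Il6 ratio of RPKM within a library, which needs no scaling between libraries, was 0.000223 ± 0.000107 in pl-ppar and 0.000204 ± 6.78e-05 in pl-cre (SD, n = 3 each). Under vehicle it was 0.118 ± 0.122 in bp-ppar and 0.0336 ± 0.0291 in bp-cre. The vehicle difference was 0.0843 with all libraries and 0.0218 without bp-ppar replicate 1, whose ratio was 0.243. With all libraries neither difference stood out from the spread (exact two-sided permutation p = 1 after stimulation and p = 0.4 under vehicle, n = 3 each), and 3 against 3 libraries cannot go below 0.1.

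**Figure D3:**
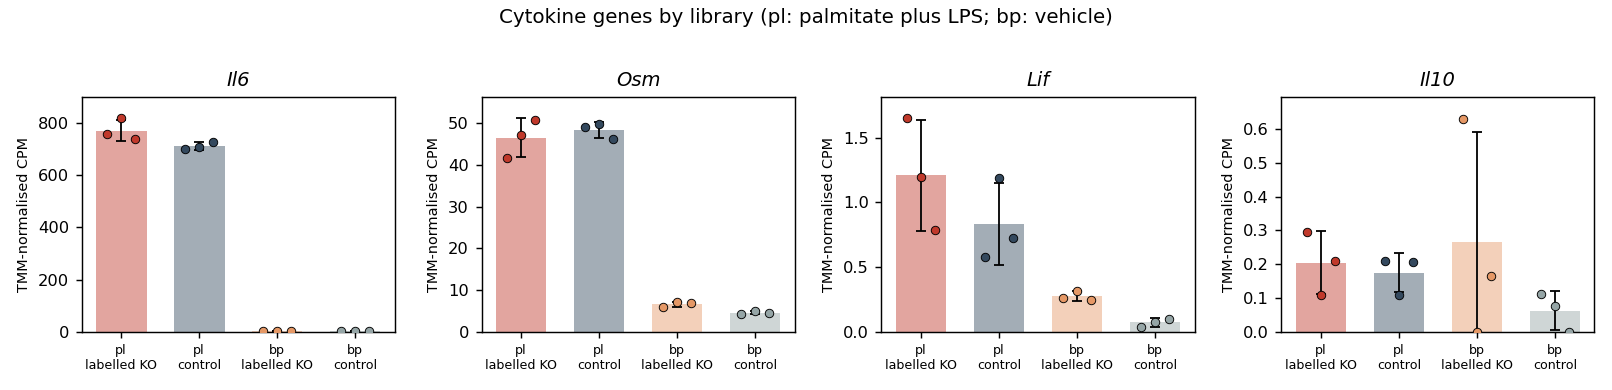
TMM-normalised CPM of 4 cytokine genes in the 4 groups; bars show the mean, error bars the SD of 3 libraries and points the libraries, each panel on its own linear axis from 0. Il6, Osm and Lif are higher in each stimulated library than in each vehicle library of the same genotype, and Il10 stays below 0.7 CPM.

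Il6ra (ENSMUSG00000027947, chromosome 3, 89869324 to 89913162, minus strand), whose product gives cells their sensitivity to interleukin-6, fell with treatment in either genotype. It stood at 2.53, 2.06 and 2.73 CPM in pl-ppar and 1.11, 1.13 and 1.35 CPM in pl-cre. Under vehicle it stood at 9.17, 10.9 and 23.5 CPM in bp-ppar and 25.8, 22.5 and 16.7 CPM in bp-cre. The stimulated genotypes did not overlap, while bp-ppar replicate 3 lay among the vehicle controls and the other 2 bp-ppar libraries below them. The gene fell by 2.58 ± 0.33 on the log2 scale in the labelled knockouts (edgeR adjusted p = 5.39e-06) and fell by 4.18 ± 0.36 in the controls (adjusted p = 7.9e-08). No genotype difference was called: it was 1.03 ± 0.45 after stimulation (adjusted p = 0.139), -0.57 ± 0.26 under vehicle (adjusted p = 0.294) and 1.60 ± 0.52 between responses (adjusted p = 0.0725). These values were called in 4 of 18, 2 of 18 and 3 of 17 other settings. Without bp-ppar replicate 3 they were 1.02 (edgeR adjusted p = 0.0111), -1.11 (adjusted p = 0.000872) and 2.13 (adjusted p = 0.00073). Without bp-ppar replicate 1 the vehicle difference was -0.34 (edgeR adjusted p = 0.699). Under DESeq2 the stimulated difference was 1.03 (adjusted p = 0.0224) and that between responses 1.60 (adjusted p = 0.00687).

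Il6st (ENSMUSG00000021756, chromosome 13, 112464070 to 112510086, plus strand), the gene of the shared chain gp130, also fell with treatment, by less. It stood at 24.9, 24.6 and 22.4 CPM in pl-ppar and 19.9, 15.6 and 17.7 CPM in pl-cre. Under vehicle it stood at 29.0, 41.8 and 43.9 CPM in bp-ppar and 36.9, 36.0 and 32.4 CPM in bp-cre. The stimulated genotypes did not overlap, and the vehicle genotypes did because bp-ppar replicate 1 was the lowest of the 6. The gene fell by 0.68 ± 0.14 on the log2 scale in the labelled knockouts (edgeR adjusted p = 0.000346) and fell by 0.99 ± 0.14 in the controls (adjusted p = 1.1e-05). After stimulation it was higher in the labelled knockouts by 0.44 ± 0.14 (adjusted p = 0.0454), a call close to the threshold that was lost in 11 of 18 other settings, with values from 0.35 to 0.52. Among these were the removal of any 1 of the 3 pl-ppar, 3 pl-cre or 3 bp-cre libraries (adjusted p from 0.0505 to 0.182), total-count scaling (adjusted p = 0.175) and the replicate block (adjusted p = 0.085). The vehicle difference was 0.13 ± 0.13 (adjusted p = 0.65), and 0.29 without bp-ppar replicate 1 (adjusted p = 0.0400). The responses differed by 0.31 ± 0.19 (adjusted p = 0.311), and by 0.15 without that library (adjusted p = 0.488). The stromal markers given with Lif, from cells that also express gp130, were higher in the same stimulated libraries, and their part was not tested.

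Il10ra (ENSMUSG00000032089, chromosome 9, 45253837 to 45269149, minus strand), which encodes the chain that binds interleukin-10, rose with treatment in the labelled knockouts and was not called in the controls. It stood at 78.6, 59.0 and 64.3 CPM in pl-ppar and 51.4, 61.0 and 55.6 CPM in pl-cre. Under vehicle it stood at 33.2, 49.2 and 46.3 CPM in bp-ppar and 55.3, 56.2 and 49.6 CPM in bp-cre. The stimulated genotypes overlapped, and the vehicle genotypes were separate by less than 1 CPM. The response was 0.65 ± 0.14 in the labelled knockouts (edgeR adjusted p = 0.000526) and 0.06 ± 0.13 in the controls (adjusted p = 0.713). With total-count scaling the labelled knockouts gave 0.27 (adjusted p = 0.14) and the controls -0.28. The test of the difference between responses missed the threshold (0.59 ± 0.19, adjusted p = 0.0701) and passed it in 5 of 17 other settings, among them DESeq2 (adjusted p = 0.0462). Without bp-ppar replicate 1 it was 0.43 (edgeR adjusted p = 0.0308), and the stimulated genotype difference was then called (0.26, adjusted p = 0.0261, against 0.26 ± 0.13 and adjusted p = 0.199 with all libraries). The vehicle difference was -0.32 ± 0.13 (adjusted p = 0.251), and -0.17 without that library (adjusted p = 0.436).

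Il10rb (ENSMUSG00000022969, chromosome 16, 91406164 to 91425834, plus strand), the second interleukin-10 receptor chain, which several related receptors share, was the steadiest member. It ranged from 244 to 264 CPM in pl-ppar, 237 to 250 in pl-cre, 231 to 239 in bp-ppar and 230 to 247 in bp-cre. It was not called in any of the 5 comparisons of the edgeR test, with log2 values from 0.00 to 0.11 (unadjusted p from 0.138 to 0.982). With total-count scaling, which moved the median of all genes by -0.37 in the labelled knockouts and -0.33 in the controls, its response was -0.26 in the labelled knockouts (edgeR adjusted p = 0.00149) and -0.28 in the controls (adjusted p = 0.001), close to that shift. The deposited exons of Il10rb share 569 of 3808 bases with the predicted gene Gm21970 on the same strand, which had 0 counts in each library.

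Stat3 (ENSMUSG00000004040, chromosome 11, 100885098 to 100939540, minus strand) rose with treatment and was higher in the stimulated labelled knockouts. It stood at 222, 216 and 231 CPM in pl-ppar and 168, 160 and 150 CPM in pl-cre. Under vehicle it stood at 61.2, 78.9 and 83.5 CPM in bp-ppar and 72.6, 69.4 and 73.7 CPM in bp-cre. The stimulated genotypes did not overlap, and the vehicle controls lay inside the range of the labelled knockouts. The response was 1.58 ± 0.10 in the labelled knockouts (edgeR adjusted p = 8.59e-10) and 1.14 ± 0.10 in the controls (adjusted p = 4.78e-08). The stimulated difference of 0.49 ± 0.10 (adjusted p = 0.00315) kept its call in all 18 other settings, with values from 0.40 to 0.52 and adjusted p up to 0.0328. The vehicle difference was 0.05 ± 0.10 (adjusted p = 0.817), and 0.18 without bp-ppar replicate 1 (adjusted p = 0.139). The responses differed by 0.43 ± 0.14, short of the threshold (adjusted p = 0.0674), and passed it in 4 of 17 other settings, among them DESeq2 (adjusted p = 0.0393) and the removal of bp-ppar replicate 1 (0.31, edgeR adjusted p = 0.018). Stat3 shares 72 exon bases with Stat5a on the opposite strand, and the strand setting of the counting is not given in the sources used here.

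**Figure D4:**
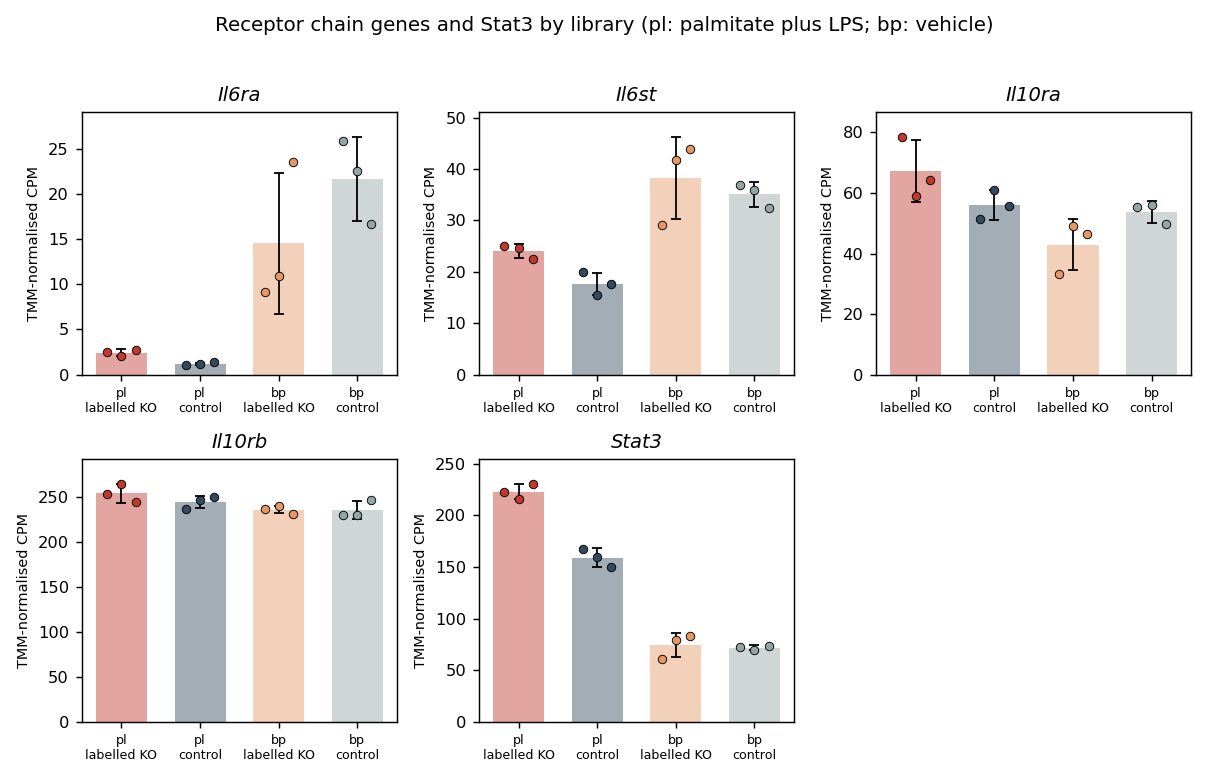
TMM-normalised CPM of the 4 receptor chain genes and Stat3 in the 4 groups; bars show the mean, error bars the SD of 3 libraries and points the libraries, each panel on its own linear axis from 0. Il6ra and Il6st are lower in the stimulated libraries, Stat3 is higher and highest in pl-ppar (216 to 231 CPM), and Il10rb stays between 230 and 264 CPM.

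Other genes of the pathway were read from 6 lists, and the first held 12 further ligands and receptors of the gp130 family, of which 6 were tested. The counts of these lists stand against the shares of all genes given with the members: 10% higher and 6.10% lower between stimulated genotypes, and with treatment 33.7% higher and 35.6% lower in the labelled knockouts and 32.0% higher and 34.7% lower in the controls. Between stimulated genotypes the lists of STAT3 and interleukin-10 response genes and of regulators lie near these shares. The counts of the other lists lie above the share in at least 1 direction. With treatment the number that rose lies above the share in each list. These numbers include Il22, Socs1, Cish and Ddit4, which passed the filter on low counts only through the stimulated libraries. Their part in the treatment counts is no support for a rise. In the interleukin-10 list Il22 is 1 of only 2 tested genes, so nothing is drawn from its share. No list was tested as a set, and the lists were chosen with earlier results known. In the first list 4 of the 6 were higher between stimulated genotypes and 0 lower (median 0.59, against -0.01 over all genes). The number higher was 1 without pl-ppar replicate 1 or pl-cre replicate 2, and 2 without pl-ppar replicate 3, without pl-cre replicate 3 or with the replicate block. Il27, whose product pairs with that of Ebi3 to form interleukin-27, stood at 1286 ± 71.8 CPM in pl-ppar and 536 ± 16.7 CPM in pl-cre, a difference of 1.26 ± 0.08 (edgeR adjusted p = 8.93e-08). Ebi3 stood at 55.3 ± 7.12 CPM in pl-ppar and 38.4 ± 4.64 in pl-cre, and its call (0.52 ± 0.16, adjusted p = 0.0316) was lost in 6 of 18 settings. Osmr, the oncostatin M receptor chain, stood at 8.26 ± 1.93 CPM in pl-ppar and 4.41 ± 0.466 in pl-cre (0.90 ± 0.23, adjusted p = 0.0148). Its call was lost without pl-cre replicate 2 (adjusted p = 0.069) or pl-ppar replicate 1 (adjusted p = 0.0849). The highest stromal sum was that of pl-ppar replicate 1, and the part of stromal cells in the Osmr difference was not tested. With treatment, 4 of the 6 rose and 1 fell in either genotype. Il27 rose by 8.74 ± 0.12 in the labelled knockouts and 7.77 ± 0.11 in the controls, and Osmr rose by 2.16 ± 0.25 in the labelled knockouts and 1.80 ± 0.28 in the controls. Il27ra, the interleukin-27 receptor chain, fell in the labelled knockouts (-0.89 ± 0.12) and stood at 10.3 ± 0.586 CPM in pl-ppar and 19.2 ± 2.91 CPM in bp-ppar.

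Of 9 further genes of the interleukin-10 family 2 were tested. Il22 had 29, 15 and 15 counts in pl-ppar, 16, 34 and 38 in pl-cre and 0 in each vehicle library. It passed the filter on low counts only through the stimulated libraries, so the values are given with no test of treatment. Mouse Il22 has a near-identical copy, Iltifb, so the split of reads between them is uncertain. Il20rb, a receptor chain for interleukins 19, 20 and 24, was lower in the stimulated labelled knockouts, at 2.40 ± 0.336 CPM in pl-ppar and 5.79 ± 0.506 CPM in pl-cre (-1.27 ± 0.17, adjusted p = 0.00015).

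The kinases, STAT factors and adaptors behind the receptors rose with treatment in most cases. Of 15 genes, 12 rose and 3 fell in the labelled knockouts, and 9 rose and 3 fell in the controls. With total-count scaling the counts were 8 and 3 in the labelled knockouts and 4 and 5 in the controls. The kinase gene Jak2 rose by 3.30 ± 0.09 in the labelled knockouts and 3.11 ± 0.09 in the controls, and Stat5a by 2.38 ± 0.12 in the labelled knockouts and 2.16 ± 0.12 in the controls. Between stimulated genotypes 6 were higher and 0 lower (median 0.25; 10% higher and 6.10% lower over all genes), with 1 higher under total-count scaling, 1 without pl-cre replicate 2 or 3, and 2 without any 1 of the pl-ppar libraries. Adam17, the protease that sheds the interleukin-6 receptor, stood at 355 ± 6.92 CPM in pl-ppar and 246 ± 18.3 in pl-cre (0.53 ± 0.13, edgeR adjusted p = 0.0125), and its call was lost with total-count scaling and without pl-cre replicate 2 or 3 (adjusted p up to 0.0802). The kinase gene Tyk2 (0.66 ± 0.18, adjusted p = 0.0184) lost its call in 6 of 18 settings.

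Genes of proteins that restrain these receptors went in both directions. With treatment 6 of 9 rose in either genotype, while 2 fell in the labelled knockouts and 1 in the controls, or 3 in each with total-count scaling. Among the 9, Socs1 and Cish passed the filter on low counts only through the stimulated libraries. Their part in the number that rose is therefore no support for a rise. In the controls 2 fell with DESeq2, with these groups alone and without bp-ppar replicate 1 or 3. Cish stood at 45 ± 7.71 CPM in pl-ppar and 77 ± 12.9 in pl-cre, against 0.368 ± 0.143 in bp-ppar and 0.350 ± 0.203 in bp-cre. Its log2 response was 6.92 ± 0.26 in the labelled knockouts and 7.83 ± 0.26 in the controls. Because of how Cish passed the filter, these treatment values are given with no test. Socs3, the main inhibitor of gp130 signalling, rose by 4.80 ± 0.14 in the labelled knockouts and 5.60 ± 0.14 in the controls. Socs2, a relative of Socs3, rose by 4.13 ± 0.17 in the labelled knockouts and 4.58 ± 0.17 in the controls. Between stimulated genotypes 4 of the 9 were lower and 2 higher (median 0.14). Ptpn1, a tyrosine phosphatase that acts on JAK kinases, stood at 121 ± 5.88 CPM in pl-ppar and 166 ± 9.82 CPM in pl-cre (-0.46 ± 0.07, edgeR adjusted p = 0.000552). Cish was lower by -0.77 ± 0.16 (adjusted p = 0.00309), and Pias1, the gene of a SUMO ligase, was higher by 0.32 ± 0.07 (adjusted p = 0.00441). These 3 calls held in all 18 settings.

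Genes that STAT3 or interleukin-10 induce mostly rose with treatment, while Il10 itself did not pass the filter. Of 15, 13 rose and 1 fell in the labelled knockouts, and 11 rose and 2 fell in the controls. Ddit4, 1 of the 15, passed the filter on low counts only through the stimulated libraries, so its part in these counts is no support. With total-count scaling 7 rose in the labelled knockouts and 10 in the controls. In the controls 1 fell without bp-cre replicate 1 or 2 or pl-cre replicate 2 or 3. The kinase gene Pim1 rose by 2.45 ± 0.08 in the labelled knockouts and 2.24 ± 0.08 in the controls, and the protease inhibitor gene Timp1 by 4.15 ± 0.20 in the labelled knockouts and 4.81 ± 0.21 in the controls. Il1rn, the interleukin-1 receptor antagonist, rose by 2.96 ± 0.09 in the labelled knockouts and 2.50 ± 0.09 in the controls. Between stimulated genotypes 2 of 15 were higher and 1 lower (median 0.20), about the 10% and 6.10% of all genes. The number higher was 8 without bp-ppar replicate 1, the library that stood apart, 7 with the stimulated groups alone, and 1 without pl-ppar replicate 3, without pl-cre replicate 2 or 3 or with total-count scaling. The 1 lower became 0 without pl-ppar replicate 1 or 2, without pl-cre replicate 1 or 2, or with the replicate block. Il1rn differed by 0.93 ± 0.09 (edgeR adjusted p = 4.91e-06) and kept its call in all 18 settings. Etv3, a transcriptional repressor (0.54 ± 0.14, adjusted p = 0.0142), and Junb, an AP-1 subunit (-0.46 ± 0.14, adjusted p = 0.0343), each lost their call in 5 of 18 settings. Under vehicle Il21r, the interleukin-21 receptor, was higher at 7.27 ± 0.0585 CPM in bp-ppar and 2.63 ± 0.297 CPM in bp-cre (1.48 ± 0.17, adjusted p = 5.99e-05). Il1rn was higher by 0.47 ± 0.09 (adjusted p = 0.00485), a call lost with the vehicle groups alone (adjusted p = 0.0706).

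Among 19 genes whose products act on the transcription or stability of Il6 or Il10 RNA, Arid5a was higher and Zc3h12a lower in the stimulated labelled knockouts, while Il6 was not called. Between stimulated genotypes 3 of 19 were higher and 2 lower (median 0.15), within about 1 gene of the 10% and 6.10% of all genes, with 7 higher without bp-ppar replicate 1. The number higher was 1 without pl-ppar replicate 1 or 3, without pl-cre replicate 1 or 3 or with the replicate block, and 1 was lower without pl-ppar replicate 2 or pl-cre replicate 2. Arid5a, whose product stabilises Il6 RNA, stood at 398 ± 5.69 CPM in pl-ppar and 246 ± 9.60 CPM in pl-cre (0.69 ± 0.08, edgeR adjusted p = 1.89e-05). Zc3h12a, which encodes the RNase Regnase-1 that degrades Il6 RNA, stood at 45.9 ± 3.47 CPM in pl-ppar and 66.3 ± 1.69 CPM in pl-cre (-0.53 ± 0.10, adjusted p = 0.00134). Both calls held in all 18 settings. Cebpb, a factor that binds C/EBP sites, was lower by -0.55 ± 0.14 (adjusted p = 0.0116), a call lost without pl-cre replicate 2 or pl-ppar replicate 2 (adjusted p up to 0.0522). With treatment 13 rose and 4 fell in the labelled knockouts and 12 rose and 4 fell in the controls. Arid5a rose by 3.37 ± 0.08 in the labelled knockouts and 2.96 ± 0.08 in the controls. Nfkb1, an NF-kB subunit, rose by 2.56 ± 0.10 in the labelled knockouts and 2.67 ± 0.10 in the controls. Under vehicle 1 was higher, Maf, a factor that promotes Il10 transcription, at 56.3 ± 6.34 CPM in bp-ppar and 38.8 ± 1.97 CPM in bp-cre (0.54 ± 0.13, adjusted p = 0.0265). Its call was lost in 5 of 18 settings.

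**Figure D5:**
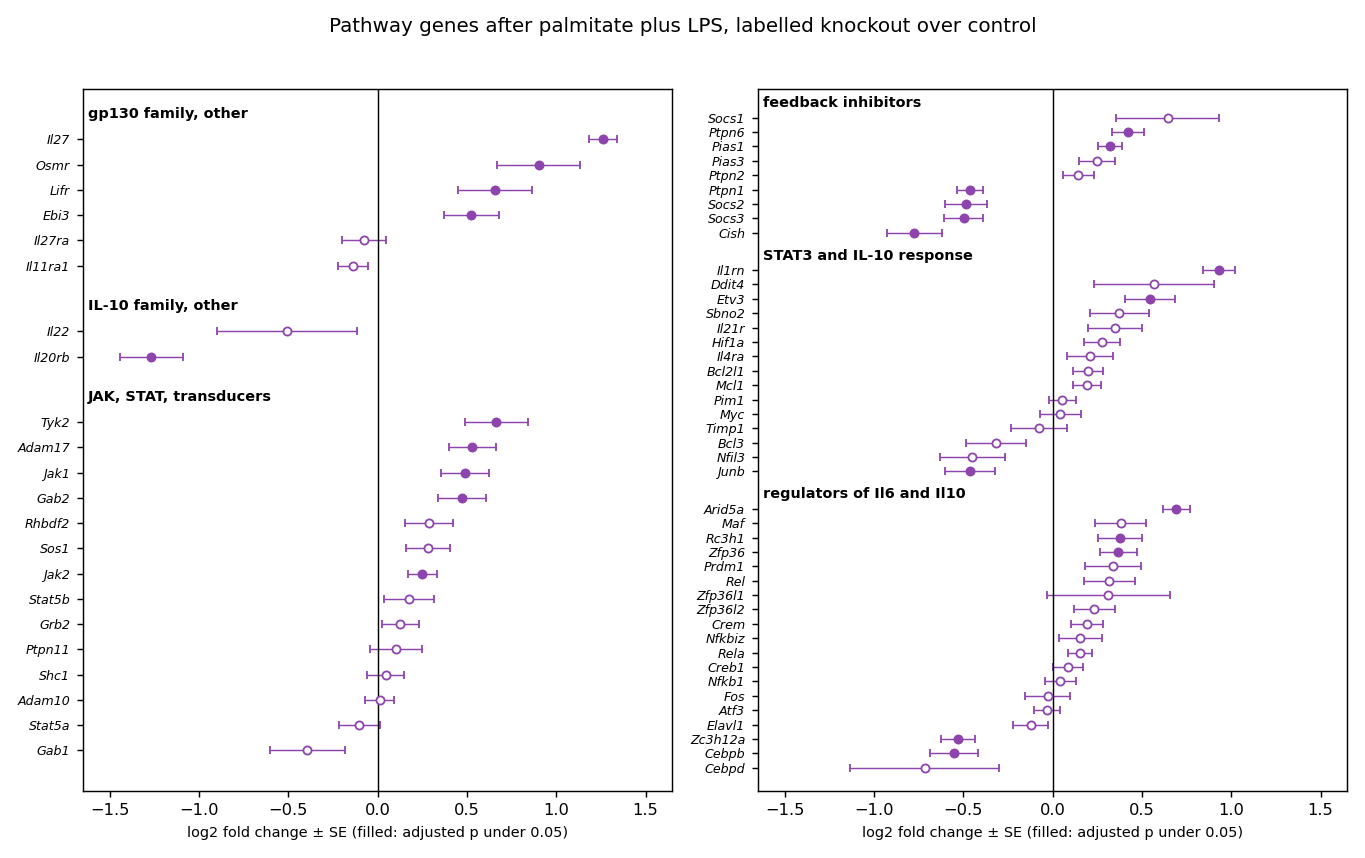
Log2 fold changes ± SE between the stimulated genotypes (labelled knockout over control) for tested genes of 6 pathway lists, ordered within each list, with filled points for adjusted p under 0.05 (edgeR). Il27 (1.26) is the highest and Il20rb (-1.27) the lowest; Arid5a (0.69) and Zc3h12a (-0.53) lie on opposite sides of 0.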

How the data were processed

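Gene expression was measured by RNA sequencing in 12 libraries, 3 per group, assigned by title. Per the labels' protocols, RNA was purified on Ambion columns and libraries were made with Clontech SMARTer v1. Per the submitters' processing notes the tools were STAR 2.0.4b, bcl2fastq 2.0 and featureCounts 1.45 of Subread, on GRCm38. The sources used here do not give the options, the annotation release or whether counting used strand. The authors deposited a raw count, CPM (count scaled by the library's total) and RPKM (that CPM per kilobase of exon) for each gene. Symbols came from a table of gene names (40254 of 41388 IDs).

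Tests used the deposited counts: edgeR 4.0.16 (R 4.3.3) quasi-likelihood F-test, robust, TMM scaling, filterByExpr by group (12914 genes with at least 99.9% of each library's counts), all 12 libraries with 1 mean per group, and Benjamini-Hochberg adjustment over all genes with a threshold of 0.05. The 18 alternatives change 1 choice each (17 for the difference between responses). The fit was tested on simulated counts. SDs are of TMM-normalised CPM unless RPKM is named. DESeq2 1.42.0, other scalings, no filter, the groups compared alone, a replicate block and leaving out each library were alternatives. Promoters came from RefSeq (GRCm38.p6). The named pathway genes were up to 3 called members per list and comparison with the smallest p. The members and lists were chosen with earlier results of these data known. The result of 1 listed gene is not reported here.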

Additional observations from a re-analysis of the deposited data

Results flagged for a closer look

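The response to palmitate plus LPS differed between labelled knockouts and controls for 1 member, Osm, by -0.57 ± 0.15 on the log2 scale (edgeR interaction adjusted p = 0.0322), a call lost in 10 of 17 other settings, among them the replicate block (adjusted p = 0.0507) and the removal of any 1 of the bp-cre or pl-cre libraries. The same test called 13 genes of the pathway lists, and 8.05% of all genes tested (4.70% higher and 3.35% lower). Higher and lower calls were 1 and 0 of 6 in the gp130 list and 0 and 1 of 2 in the interleukin-10 list. They were 2 and 0 of 15 for kinases, STAT factors and adaptors, and 0 and 2 of 9 for inhibitors. For STAT3 and interleukin-10 response genes they were 2 and 3 of 15, and for regulators 1 and 1 of 19. Each value is the response in the labelled knockouts minus that in the controls. Il27 differed by 0.96 ± 0.15 (edgeR adjusted p = 0.00173), Ptpn1 by -0.68 ± 0.11 (adjusted p = 0.00162) and Il21r by -1.13 ± 0.23 (adjusted p = 0.00868), and these 3 held in all 17 other settings. Il20rb differed by -1.12 ± 0.27 (adjusted p = 0.0228), Socs3 by -0.80 ± 0.20 (adjusted p = 0.0234) and Nfil3, which encodes a transcription factor, by -1.23 ± 0.28 (adjusted p = 0.0164), and of 17 settings Il20rb lost its call in 4, Socs3 in 3 and Nfil3 in 1. Bcl3, an inhibitory partner of NF-kB, differed by -1.03 ± 0.26 (adjusted p = 0.0257) and Cebpb by -0.84 ± 0.21 (adjusted p = 0.025), each lost in 8 settings. Arid5a differed by 0.41 ± 0.11 (adjusted p = 0.0317), Tyk2 by 0.89 ± 0.25 (adjusted p = 0.0409) and Stat5b by 0.70 ± 0.20 (adjusted p = 0.0437). Arid5a lost its call in 9 settings, Tyk2 in 10 and Stat5b in 11. Il1rn differed by 0.46 ± 0.12 (edgeR adjusted p = 0.0364) and Bcl2l1, a survival gene, by 0.42 ± 0.12 (adjusted p = 0.0416), each lost in 11 settings; these 2 lie outside the rule for named genes and were added after their values were seen.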

How the results depend on the processing

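Of 711 values of the 8 tested members under the alternatives, 648 kept their direction and side of the threshold, 27 lost a call, 21 gained one and 15 changed sign; for 20 of 40 results no alternative changed either. Of 1175 values of the named pathway genes, 1063 kept their call, 112 lost it and 0 changed sign. Causes were not tested. Under vehicle the number of members called (1) was 0 with total-count scaling or the vehicle groups alone and 3 with no filter; genes called (491) were 960 with no filter and 229 with the vehicle groups alone; pathway genes called (3) were 7 with no filter and 7 with DESeq2. When 1 library was left out, these ran from 0 to 2 members, 261 (without bp-cre replicate 1) to 789 (without bp-ppar replicate 1) genes and 2 to 9 pathway genes. After stimulation the number of members called (2) was 1 with total-count scaling or the replicate block, and genes called (2081) were 3811 with the stimulated groups alone. Leaving out 1 library gave 1 to 3 members, 1227 (without pl-cre replicate 3) to 4080 (without bp-ppar replicate 1) genes and 14 to 37 pathway genes (25 with all). Between responses the number of members called (1) was 4 with no filter, 4 with DESeq2 and 0 with the block; genes (1039) were 1875 with no filter and 514 with the block; pathway genes (13) were 20 with no filter and 6 with the block. Leaving out 1 library gave 0 to 4 members, 428 (without bp-cre replicate 2) to 1962 (without bp-ppar replicate 3) genes and 4 to 21 pathway genes.

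Signs changed for small values. Il10rb under vehicle was -0.043 with total-count scaling, -0.011 with no filter and -0.0051 with the vehicle groups alone, and ran from -0.018 to 0.036 without 1 library. After stimulation it was -0.027 with total-count scaling. With that scaling the response of Il10rb was -0.26 in the labelled knockouts and -0.28 in the controls, and that of Il10ra in the controls -0.28 (-0.0045 to 0.13 without 1 library). Without 1 library, Stat3 under vehicle ran from -0.035 to 0.18, Osm after stimulation from -0.12 to 0.017 and the difference between Il6 responses from -0.30 to 0.072. The Il10 to Il6 difference after stimulation ran from -3.13e-05 (without pl-ppar replicate 1) to 7.49e-05 (without pl-ppar replicate 2) and was -2.04e-05 without pl-cre replicate 2; its log2 form could not be computed under vehicle, where Il10 counts of 0 occur.

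Total-count scaling moved the split of higher and lower calls between stimulated genotypes to 841 and 1578 (1293 and 788 with TMM), between responses to 388 and 788 (607 and 432), in the labelled knockouts' response to 2676 and 6570 (4356 and 4600) and in the controls' to 2644 and 6416 (4132 and 4480). Libraries of the same number did not deviate together (r from -0.24 to 0.04 over 18 pairs, 0 of 12 libraries closest to their own number). With 3 libraries per group this showed no sign of pairing by number. It cannot exclude a shared source, on which the labels are silent. Il10 and Lif under vehicle are limited by depth, at 12 or fewer counts a library.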
